A study of Mus musculus with 6 samples.

Results

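The 10 miRNAs described here are the guide arms of 3 related gene clusters, miR-17-92, miR-106b-25 and miR-106a-363. A guide arm is the strand of a miRNA hairpin that is usually loaded into Argonaute, and the other strand is called the passenger arm. The members were found by exact name among 1573 rows for known mouse miRNAs in a table of 61628 small RNA rows. Peritubular myoid cells are the smooth muscle-like cells around the seminiferous tubules of the testis. They were isolated from C57BL/6J mice, used as primary cells and grown in DMEM/F12 with 10% fetal bovine serum. The untreated group had 3 libraries, and the other 3 libraries came from cells given 50 nM endothelin-1 (ET1), a contractile peptide, for 5 min. The labels name no age and no separate culture or animal for each library. The p-values below are therefore measured against variation among the sequenced libraries, and this variation may be technical only.

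The clusters are copies of an ancestral miRNA gene, and each is transcribed as a single primary RNA that is cut into several hairpins. MYC and E2F factors activate the miR-17-92 transcript, which is abundant in dividing cells. Target choice is set mainly by the seed, the bases next to the 5′ end, so that members fall into seed families whatever their cluster. Known targets include the cell cycle inhibitor Cdkn1a and the pro-apoptotic Bcl2l11 for the miR-17 seed. The miR-18 seed restrains Smad and connective tissue growth factor signalling, and miR-92a represses integrin subunits.

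RefSeq (GRCm38.p6) held a mature sequence for all 10 members, and the sequences are shown to define the families compared below. The prefix mmu stands for mouse and is left out where it is not needed. Capitals mark the seed, bases 2 to 8 from the 5′ end. The miR-17 seed was shared by 4 members:
mmu-miR-17-5p: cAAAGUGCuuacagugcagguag
mmu-miR-20a-5p: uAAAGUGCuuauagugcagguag
mmu-miR-93-5p: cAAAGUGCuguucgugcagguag
mmu-miR-106b-5p: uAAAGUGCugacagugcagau
The miR-18 seed had 1 member:
mmu-miR-18a-5p: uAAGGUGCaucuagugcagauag
The miR-19 seed had 2 members:
mmu-miR-19a-3p: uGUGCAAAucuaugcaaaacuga
mmu-miR-19b-3p: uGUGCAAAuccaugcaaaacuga
The miR-92 seed had 3 members:
mmu-miR-92a-3p: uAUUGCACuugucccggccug
mmu-miR-25-3p: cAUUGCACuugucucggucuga
mmu-miR-363-3p: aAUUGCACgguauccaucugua

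Some members are nearly identical. With positions counted from the 5′ end, miR-19a-3p and miR-19b-3p differ only by U11C, and miR-17-5p and miR-20a-5p by C1U and C12U. The paralog miR-106a-5p (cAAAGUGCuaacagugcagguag, shown for its likeness) differs from miR-17-5p only by U10A. How the authors assigned tags that match several such sequences is not given in the sources used here, so the split between these rows is uncertain. Over the whole sequence miR-363-3p stood apart from its family, with 45.5% of positions identical to miR-92a-3p against 81.8% for miR-25-3p.

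The miR-17-92 hairpins lie within 836 bases of chromosome 14 (GRCm38, plus strand, 115043671 to 115044506), in an exon of the lncRNA Mir17hg, in the order Mir17, Mir18, Mir19a, Mir20a, Mir19b-1 and Mir92-1. The miR-106b-25 hairpins lie within 498 bases of chromosome 5 (minus strand, 138165321 to 138165818) inside Mcm7, which encodes a subunit of the replicative helicase. GENCODE M21 places Mir106b in an intron of that gene, and Mir93 and Mir25 overlap annotated exons. The miR-106a-363 hairpins span 875 bases of the X chromosome (minus strand, 52741693 to 52742567). Mir106a overlaps an exon of the noncoding transcript Kis2, and the other 5 have no annotated host on that strand. Mature miR-92a-3p and miR-19b-3p are identical from the chromosome 14 and X copies, so their rows pool both loci.

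Libraries held 18127265 to 20895432 tags. Of these, 6240334 to 8651018 in untreated and 4381927 to 4825429 in ET1 libraries were known miRNA tags, which is 30.1% to 45.6% and 22.6% to 25.5% of all tags. Fragments of rRNA made up 3.22% to 5.63% of untreated and 7.12% to 11.02% of ET1 tags. The smooth muscle miRNA miR-143-3p ranked 11 among known miRNAs. The summed level of 6 smooth muscle markers was 20628 to 27964 CPM in untreated and 13055 to 15600.2 CPM in ET1 libraries without any of the 6 called, where CPM is the count per 1000000 known miRNA tags, with library sizes scaled by TMM. Most of that sum was miR-143-3p (17741 to 25167 against 10456 to 13423 CPM; edgeR adjusted p = 0.10), while miR-145a-5p overlapped between groups (2618 ± 506 CPM in untreated and 2431 ± 296 CPM in ET1 libraries; edgeR adjusted p = 0.88). The 2 endothelial arms of miR-126a summed to 1107 to 1883 against 114 to 163 CPM, and 5 leukocyte markers to 1988 to 4441 against 816 to 1688 CPM. All 6 libraries had tags of both endothelial arms, and 2 of the leukocyte markers, miR-142a-3p and miR-142a-5p, were at 0 in at least 1 library. A list of 7 germ cell and pluripotency markers was higher in ET1 libraries, at 165 to 502 against 73.1 to 129 CPM, with 1 of the 7, miR-291a-3p, at 0 in all 6 libraries and miR-290a-3p and miR-295-3p at 0 in at least 1. Over the 6 libraries miR-290a-3p, miR-294-3p and miR-295-3p averaged 0.067, 2.36 and 0.728 CPM. Most of that sum therefore lay in the rest of the list, miR-292a-3p, miR-34c-5p and miR-449a-5p. The red cell (143 to 915 against 444 to 1323 CPM), mesenchymal and epithelial lists overlapped between groups. At an edgeR adjusted p under 0.05, 1 marker was called in each of the endothelial, leukocyte and red cell lists. In the germ cell, mesenchymal and epithelial lists 0 were called. The part of the smooth muscle, endothelial, leukocyte and germ cell differences in the members' values was not tested. In such bulk libraries fewer cells of a type and less miRNA per cell cannot be told apart.

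The 10 members together held 2.10% ± 0.684 of known miRNA tags in untreated and 1.60% ± 0.550 in ET1 libraries (SD, n = 3 each), and the groups overlapped. miR-92a-3p alone held 85.1% to 93.2% of these tags. The miR-92 seed family took 87.0% to 94.1% of the members' tags in each library, the miR-17 seed family 5.83% to 12.6%, the miR-19 seed family 0.0523% to 0.334% and the miR-18 seed family 0.0334% to 0.101%.

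**Figure D1:**
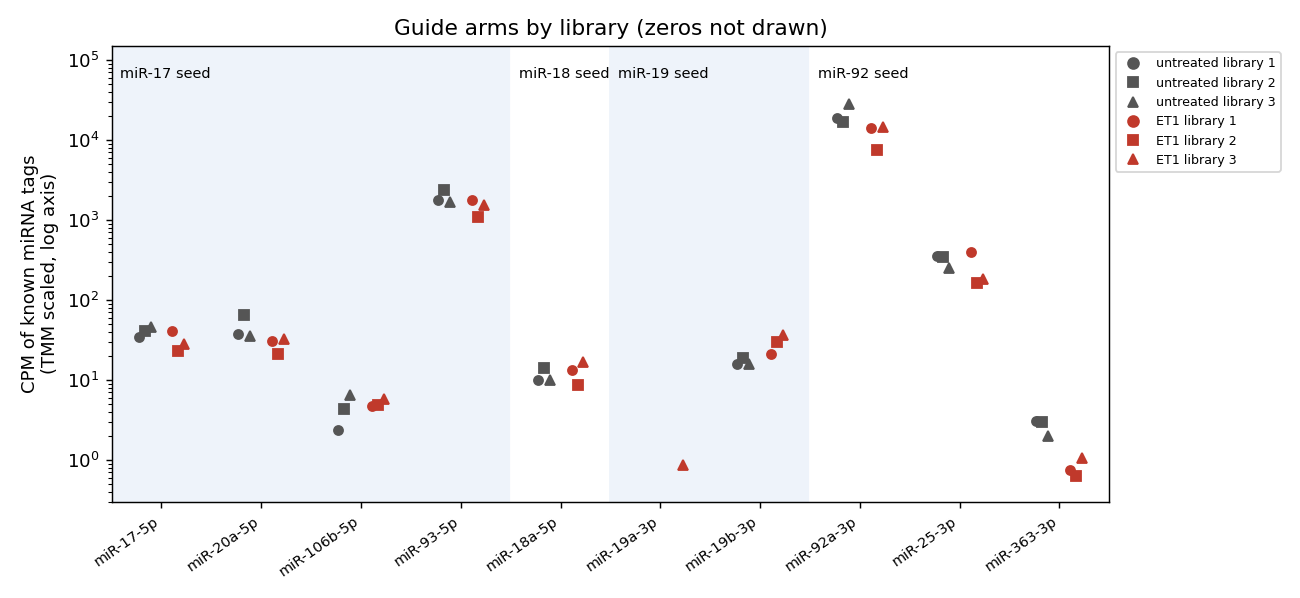
TMM-scaled CPM of each guide arm in each library on a log axis, grouped by seed family, with grey for untreated and red for ET1 libraries. miR-92a-3p, between 7604 and 28099.9 CPM, lies above every other member, and miR-19a-3p has a point in ET1 library 3 alone.

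Over the 6 libraries miR-92a-3p averaged 16632 CPM, rank 14 of the known miRNAs. miR-93-5p followed at 1702 CPM and miR-25-3p at 281 CPM, and the ranges of these 3 over libraries did not overlap. Then came miR-20a-5p at 37.04 CPM and miR-17-5p at 35.7 CPM, whose order differed between libraries (miR-20a-5p was above in 3 of 6). miR-19b-3p, at 23.0 CPM, was below miR-17-5p in 4 of 6 libraries, and miR-18a-5p, at 12.1 CPM, was below miR-19b-3p in all 6, although the ranges overlapped. miR-106b-5p stood at 4.78 CPM, miR-363-3p at 1.75 CPM and miR-19a-3p at 0.146 CPM. All members are 21 to 23 bases long, so tag counts were compared without a length correction. Whether different sequences are captured as tags equally well was not tested, so ratios between members or arms are ratios of tags, not of molecules.

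Members of a common transcript thus differed widely in tags. Within the miR-17-92 cluster, miR-92a-3p outnumbered miR-17-5p 545-fold, 407-fold and 616-fold in untreated libraries 1 to 3 and 339.8-fold, 327-fold and 516-fold in ET1 libraries 1 to 3. In the miR-106b-25 cluster, miR-93-5p outnumbered miR-106b-5p 255-fold to 738-fold in untreated and 222-fold to 382-fold in ET1 libraries. The order of the members by level was close to that by GC content, which ran from 34.8% in miR-19a-3p to 57.1% in miR-92a-3p (Spearman rho 0.76 over 10 members). Across 511 tested known miRNAs with a RefSeq sequence of the same name the rho was −0.041. Between GC content and the log2 fold change of ET1 over untreated, described below, the rho was 0.35 over the 511 miRNAs and −0.25 over the 9 tested members. These points share libraries and, in part, transcripts, and the rho values are given as descriptions.

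Passenger arms differ between loci where guide arms do not, and the chromosome 14 and X copies could be compared in this way for miR-92a only. miR-92a-1-5p, from chromosome 14, had 143 to 833 tags in the 6 libraries, and miR-92a-2-5p, from the X chromosome, had 0 to 5. Whether guide arms follow the passenger arms of their locus was not tested. For miR-19b-3p the X passenger arm miR-19b-2-5p had no row, and miR-19b-1-5p, from chromosome 14, had 0 to 5 tags. Guide arms found only in the X cluster were also thin. miR-363-3p had 3 to 22 tags, miR-20b-5p 0 to 13, and miR-106a-5p and miR-18b-5p were at 0 in all 6 libraries. miR-106a-5p differs from miR-17-5p at 1 base. miR-20b-5p differs from miR-17-5p, and miR-18b-5p from miR-18a-5p, at 2 bases. As tag assignment is not given, the split between such rows is uncertain. A count of 0 was taken to allow up to 3 tags, or 0.423 to 0.634 CPM depending on the library, and the two-sided 95% Poisson bound used for single counts below is 3.69 tags. Both cover counting error only, as no molecular identifiers are described.

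The label of guide arm did not match the arm with more tags for every hairpin. miR-17-5p made up 16.1%, 16.7% and 14.6% of the tags of both Mir17 arms in untreated libraries 1 to 3 and 14.96%, 9.79% and 12.4% in ET1 libraries 1 to 3. The passenger arm miR-17-3p thus had more tags than miR-17-5p in all 6 libraries, by 5.0-fold to 9.22-fold. For Mir18, miR-18a-5p made up 17.4% to 32.7% of tags, and for Mir106b, miR-106b-5p made up 2.65% to 8.04%, with the 3p arm higher in all 6 libraries in both. The 2 arms of Mir25 were close to balance. miR-25-3p took 54.3%, 57.9% and 44.2% in untreated and 65.4%, 42.6% and 36.4% in ET1 libraries, so that the leading arm changed between libraries of a group. The remaining members held most of the tags of both arms. miR-93-5p and miR-92a-3p made up over 99% of their tags in every library (lowest 99.2% and 99.3%), miR-20a-5p at least 97.04%, miR-19b-3p at least 96.6% and miR-363-3p at least 84.0%. For none of the 9 hairpins did these shares separate untreated from ET1 libraries.

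**Figure D2:**
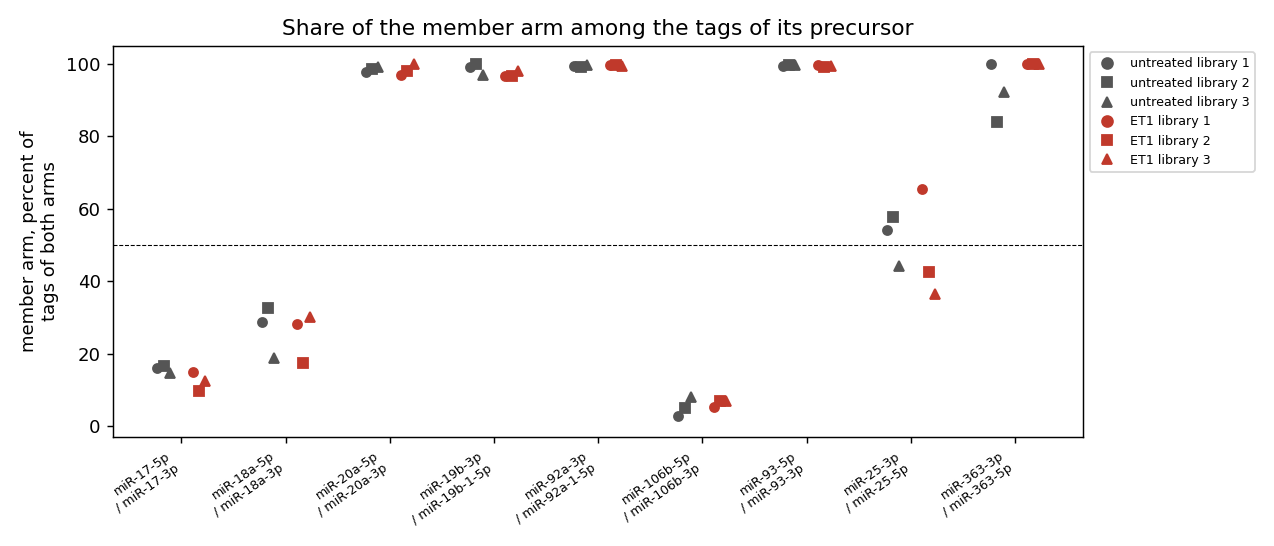
Share of the member arm among the tags of both arms, in percent, for 9 hairpins and each of the 6 libraries, with a dashed line at 50%. miR-17-5p, miR-18a-5p and miR-106b-5p lie below the line in all 6 libraries and miR-25-3p lies on both sides of it; miR-92a-3p and miR-19b-3p come from 2 loci, and only the chromosome 14 passenger arm is counted beside them.

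The comparison of ET1 with untreated cells asked whether 5 min of ET1 went with a change in these miRNAs. edgeR's quasi-likelihood test, with Benjamini-Hochberg adjustment over all 616 known miRNAs tested and a threshold of 0.05, called 0 of the 9 members that passed the filter on low counts. miR-19a-3p did not pass the filter. Over all known miRNAs the same rule called 1.79%, made up of 1.3% higher and 0.487% lower in ET1. At an unadjusted p under 0.05 there were 2 members, miR-92a-3p and miR-363-3p, against 18.3% of all tested miRNAs. Of these, miR-363-3p passed the filter through the untreated libraries, where it was higher. DESeq2 also called 0, with 1 member at an unadjusted p under 0.05. Of the 9, 6 had negative and 3 positive log2 fold changes with a median of −0.38, beside 0.0058 over the 616. Library sizes alone moved that overall median to 0.37 and a fit over all small RNA rows moved it to −0.46, so the sign of small differences followed the scaling.

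In the miR-92 seed family, mmu-miR-92a-3p stood at 18663, 16711 and 28099.9 CPM in untreated libraries 1 to 3 and at 14043, 7604 and 14669 CPM in ET1 libraries 1 to 3. All 3 ET1 libraries were below all 3 untreated libraries, at 12106 ± 3911 against 21158 ± 6091 CPM. The log2 fold change was −0.81 (SE 0.34; edgeR adjusted p = 0.22). Scaled by library size alone the groups overlapped, at a log2 fold change of −0.45. mmu-miR-25-3p was at 350.3, 340.3 and 254 CPM in untreated and at 396, 161 and 183 CPM in ET1 libraries. ET1 library 1 was the highest of the 6, so the groups overlapped (−0.35, SE 0.42; edgeR adjusted p = 0.71). Its log2 fold change was 0.034 with library sizes alone.

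mmu-miR-363-3p, read only from the X cluster, had 22, 21 and 12 tags in untreated libraries and 4, 3 and 6 in ET1 libraries, or 3.10, 2.97 and 2.01 against 0.751, 0.634 and 1.05 CPM. The groups did not overlap under either scaling. The log2 fold change of −1.70 (SE 0.67) was the lowest of the members and did not pass (edgeR adjusted p = 0.18). Its 95% Poisson intervals, which cover counting error alone, were wide, at 6.20 to 20.96 tags for untreated library 3 and 2.20 to 13.1 for ET1 library 3. The row passed the filter through the untreated libraries, and it was not tested without untreated library 1 or without untreated library 2.

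In the miR-17 seed family, mmu-miR-93-5p stood at 1768, 2354 and 1670.3 CPM in untreated and at 1793, 1078 and 1546 CPM in ET1 libraries. The groups overlapped, since ET1 library 1 was above 2 untreated libraries (−0.39, SE 0.34; edgeR adjusted p = 0.58). mmu-miR-20a-5p was at 37.8, 64.1 and 35.7 CPM in untreated and at 30.8, 20.9 and 32.8 CPM in ET1 libraries. Each ET1 library was below each untreated library, by a narrow margin to untreated library 3 (−0.70, SE 0.45; edgeR adjusted p = 0.43). By library size alone the groups overlapped.

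mmu-miR-17-5p was at 34.3, 41.1 and 45.6 CPM in untreated and at 41.3, 23.2 and 28.4 CPM in ET1 libraries (−0.38, SE 0.44; edgeR adjusted p = 0.70). ET1 libraries 2 and 3 were the lowest of the 6, and ET1 library 1 lay within the untreated range. mmu-miR-106b-5p, with 17 to 39 tags a library, was at 2.40, 4.39 and 6.54 CPM in untreated and at 4.70, 4.86 and 5.79 CPM in ET1 libraries, all inside the untreated range (0.21, SE 0.51; edgeR adjusted p = 0.87). Its sign turned in the fit over all rows (−0.21), with the miRNA share fitted as a covariate (−0.32) and without untreated library 1 (−0.085).

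mmu-miR-18a-5p, the only member with its seed, was at 9.87, 14.2 and 10.1 CPM in untreated and at 13.3, 8.66 and 16.7 CPM in ET1 libraries. The lowest and the highest value were both from ET1 libraries (0.18, SE 0.44; edgeR adjusted p = 0.87; −0.34 in the fit over all rows).

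In the miR-19 seed family, mmu-miR-19b-3p was at 15.7, 18.97 and 15.8 CPM in untreated and at 21.2, 29.8 and 36.3 CPM in ET1 libraries. All 3 ET1 libraries were above all 3 untreated libraries, under TMM and by library size. The means were 29.1 ± 7.57 against 16.8 ± 1.88 CPM, a log2 fold change of 0.79 (SE 0.44) that did not pass (edgeR adjusted p = 0.37). It was positive in all 14 alternative fits, with the lowest value, 0.30, in the fit over all rows. mmu-miR-19a-3p, which differs from it by a single base, had 5 tags in ET1 library 3 and 0 in the other 5 libraries.

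In all, the groups did not overlap for 3 members that were lower in ET1 (miR-92a-3p, miR-20a-5p and miR-363-3p; 11% of all tested miRNAs) and 1 that was higher (miR-19b-3p; 12.5% of all tested). By library size alone it was 1 lower (miR-363-3p; 5.03% of all tested) and 1 higher (miR-19b-3p; 20.9%), beside 26% of all tested in either direction. In either direction TMM scaling gave 4 members, beside 23.5%. Under both scalings miR-363-3p is counted, although it passed the filter through the untreated libraries, where it was higher.

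**Figure D3:**
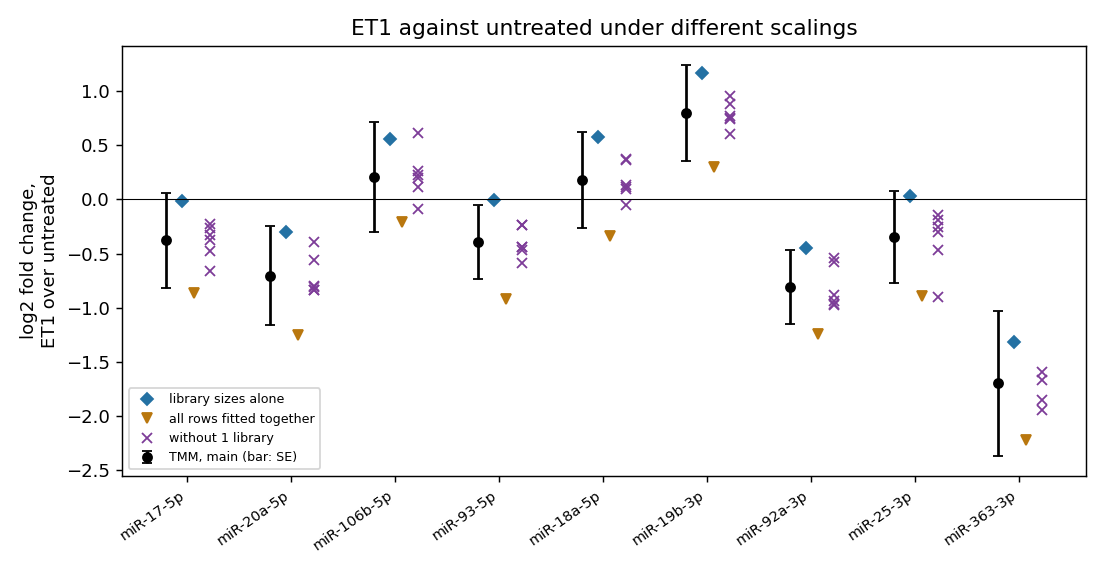
Log2 fold change of ET1 over untreated for the 9 tested members, with black points and SE bars for the edgeR fit after TMM scaling, blue for library sizes alone, orange for a fit over all small RNA rows, and crosses for fits without 1 library. miR-19b-3p is above 0 and miR-92a-3p and miR-363-3p below 0 at every point, while miR-106b-5p, miR-18a-5p and miR-25-3p lie on both sides of 0.

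Ratios within a library do not depend on the scaling between libraries and were used to compare the seed families. In the miR-17 seed family 95% to 96% of tags were miR-93-5p, so that a ratio to this family is mainly a ratio to miR-93-5p. The miR-17 seed family had 118, 129.9 and 111 tags for every tag of the miR-19 seed family in untreated libraries 1 to 3, and 88.1, 37.8 and 43.4 in ET1 libraries 1 to 3. Relative to the miR-17 seed the miR-19 seed was thus higher in each ET1 library than in each untreated one, with a difference in mean log2 ratio of 1.19 and SDs of 0.11 in untreated and 0.65 in ET1 libraries. For every tag of the miR-18 seed it had 187, 174 and 175 tags in untreated and 140.2, 130.1 and 96.7 in ET1 libraries, again without overlap (log2 difference of miR-18 over miR-17 seed 0.56, SDs 0.057 and 0.28). Of 612 tested miRNAs outside the miR-17 seed family, 19.1% had a ratio to it whose lowest ET1 value exceeded the highest untreated value, and 3.92% the reverse. The miR-92 seed family was 10.3, 6.92 and 16.1 times the miR-17 seed family in untreated and 7.72, 6.89 and 9.21 times in ET1 libraries, and the groups overlapped (difference −0.41, SDs 0.61 and 0.21). A score over members was not tested, so these ratios carry no p.

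Set against each other within the miR-17-92 cluster, miR-19b-3p had 0.457, 0.462 and 0.346 tags per tag of miR-17-5p in untreated libraries and 0.514, 1.28 and 1.28 in ET1 libraries. In ET1 libraries 2 and 3 it thus outnumbered miR-17-5p, and the groups did not overlap, as was so in this direction for 18.4% and in the other for 4.23% of the 615 other tested miRNAs. miR-18a-5p had 0.288, 0.345 and 0.221 tags per tag of miR-17-5p in untreated and 0.323, 0.373 and 0.586 in ET1 libraries, and here the groups overlapped. miR-92a-3p outnumbered miR-19b-3p 881-fold to 1782-fold in untreated and 255-fold to 662-fold in ET1 libraries. The ratio to miR-19b-3p was lower without overlap in ET1 for 33.7% of the 615 other tested miRNAs and higher for 2.6%. By contrast miR-20a-5p and miR-17-5p kept overlapping ratios, 0.783 to 1.56 in untreated and 0.745 to 1.15 in ET1 libraries. In the miR-106b-25 cluster the ratio of miR-93-5p to miR-25-3p was 5.05, 6.92 and 6.58 in untreated and 4.52, 6.68 and 8.45 in ET1 libraries, and overlapped.

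**Figure D4:**
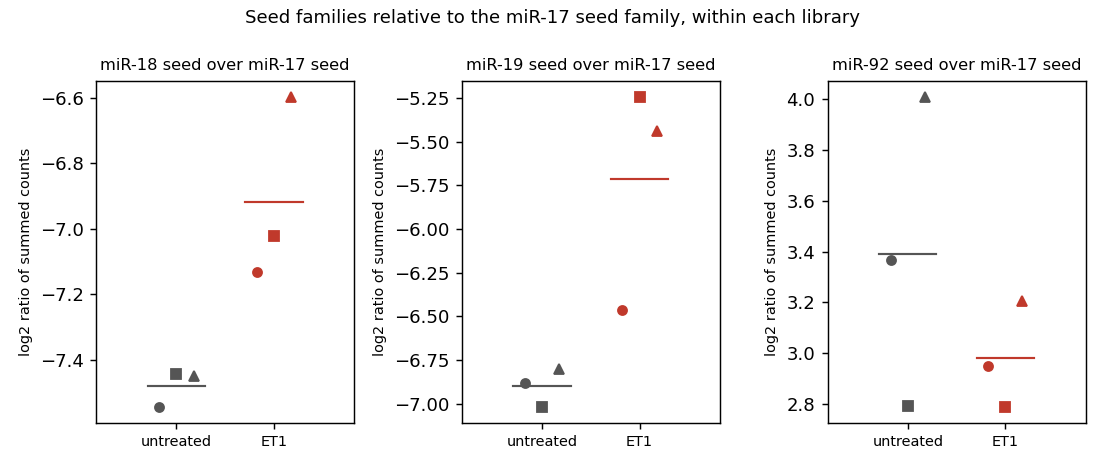
Log2 ratio of the summed counts of the miR-18, miR-19 and miR-92 seed families to those of the miR-17 seed family in each library, with bars at the group means. The ET1 libraries lie above all untreated libraries for the miR-18 and miR-19 seeds, with mean differences of 0.56 and 1.19, and overlap them for the miR-92 seed.

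Scaled to known miRNA tags without TMM factors, the miR-19 seed family stood at 14.7 ± 0.944 CPM in untreated and 33.5 ± 9.83 CPM in ET1 libraries, without overlap. Apart from 5 tags of miR-19a-3p in ET1 library 3, this sum was miR-19b-3p. Under this scaling 20.9% of all tested miRNAs were higher in ET1 without overlap. The miR-18 seed family stood at 9.93 ± 1.49 and 14.8 ± 5.19, the miR-17 seed family 1767 ± 214 and 1757 ± 484, and the miR-92 seed family 19210 ± 6952 and 14179 ± 5037 CPM, and in these 3 the groups overlapped.

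Partner rows from the same hairpins and seeds gave no call either. Of 18 listed passenger arms and paralogs 14 had a row, 3 of these at 0 in every library, and 6 were tested, with 0 called by edgeR, 0 at an unadjusted p under 0.05 and a median log2 fold change of −0.069. miR-92a-1-5p, the passenger partner of miR-92a-3p, was at 89.0, 118 and 81.5 CPM in untreated and at 34.2, 30.2 and 97.8 CPM in ET1 libraries. ET1 libraries 1 and 2 were below the untreated range and ET1 library 3 inside it (−0.83, SE 0.51; edgeR adjusted p = 0.38). Among the other passengers miR-17-3p was at −0.0011 (SE 0.37), miR-25-5p at −0.21 (SE 0.37) and miR-106b-3p at −0.14 (SE 0.40). The thinner miR-18a-3p and miR-93-3p were at 0.22 and 0.43 (lowest edgeR adjusted p of these 5 was 0.71).

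Besides miR-106a-5p, miR-18b-5p and miR-20b-5p, a member's seed was found in miR-32-5p and miR-92b-3p, both with the miR-92 seed. miR-92b-3p (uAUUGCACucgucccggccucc, shown as the close relative of miR-92a-3p from another locus) differs from miR-92a-3p over their shared length by U10C and G21C. It was at 109, 76.6 and 264 CPM in untreated and at 147, 107 and 205 CPM in ET1 libraries, inside the untreated range (0.031, SE 0.49; edgeR adjusted p = 0.98). miR-32-5p, with 1 to 31 tags, was not tested. A wider set of 10 rows held the shared core AAGUGC within bases 1 to 8 without being members or sharing their exact seed, among them the miR-290 and miR-302 families of pluripotent cells. Of these, 2 were at 0 throughout and 2 were tested. miR-350-5p averaged 31.5 CPM (0.81, edgeR adjusted p = 0.37), miR-294-3p 2.36 CPM (0.90, edgeR adjusted p = 0.58), and miR-295-3p, at 0.728 CPM, was not tested.

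The miRNAs most like each family's leading member were ranked by the root mean square difference of centred log2 CPM over the 6 libraries, among 607 tested non-members. For miR-93-5p they were miR-340-3p (0.11), miR-1306-3p (0.13) and miR-28a-5p (0.15), beside a median of 0.67 over all compared. For miR-92a-3p they were miR-212-3p (0.17), miR-134-3p (0.22) and miR-652-3p (0.22), beside a median of 0.81. miR-18a-5p was nearest to miR-214-5p (0.11), miR-125a-3p (0.16) and miR-375-3p (0.20), and miR-19b-3p to miR-698-5p (0.18), miR-185-3p (0.21) and miR-1947-5p (0.22). The nearest other member was miR-20a-5p for miR-93-5p, at 0.20, closer than all but 6 of the non-members. It was miR-17-5p for miR-92a-3p (0.35), miR-93-5p for miR-18a-5p (0.32) and miR-18a-5p for miR-19b-3p (0.44), where 71 non-members were closer.

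The authors' deposited table, which compares pooled counts and so holds no term for the spread between libraries, marked 4 members as up and 6 as down. Of the 10, 6 had a q under 0.001 in the authors' deposited table, beside 44.1% of the 1147 known miRNA rows with a q. These were miR-92a-3p (log2 ratio −0.41), miR-363-3p (−1.38), miR-20a-5p (−0.36), miR-93-5p (−0.042), miR-18a-5p (0.54) and miR-19b-3p (1.14), as the authors' deposited table gives them. The log2 ratio of the raw pooled counts minus that of the authors' deposited table was −0.697 for each of the 9 members with tags in both groups. For miR-19a-3p the authors' deposited table gave a log2 ratio of 4.02, which rests on 5 tags against 0.

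Rfam precursor families had rows of their own in the authors' counts, beside those of the mature arms. Whether a tag could count in both is not given in the sources used here. The mir-92 precursor family row held 26467, 22374 and 33755 tags in untreated and 15063, 8821 and 13941 in ET1 libraries, while the mir-17 row held 14 to 41 tags and the mir-19 row 0 to 2. In the fit over all rows the mir-92 row had a log2 fold change of −1.25 (SE 0.28; edgeR adjusted p = 0.26), beside −1.24 for miR-92a-3p in the same fit and −0.46 for the median of known miRNAs.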

How the data were processed

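Small RNA tags of 6 libraries were counted by the authors. Bowtie2 and the build mm10 are named, per the submitters' processing notes, and the libraries followed BGI protocols after TRNzol extraction, per the labels' protocols. The deposited table gives tag counts per row. A second deposited value headed TPM was, from its values, an RPM over all rows, with 0 written as 0.001; it was not tested because the counts were at hand. The authors' deposited comparison, named for DEGseq, gives pooled counts, mean RPM, log2 ratios, p-values and q-values.

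Known miRNA counts were fitted in R 4.3.3 by edgeR 4.0.16 (scaling by TMM, default expression filter, robust quasi-likelihood fit, group as the only term, two-sided). DESeq2 1.42.0 was an alternative. Pooled genomic classes (exon, intron, intergenic and repeat tags, 4 rows with 44.3% to 61.4% of all tags) were left out of the fits. The code of the fit was checked on counts simulated from its own means and dispersions. Such counts follow the model, so they do not show how well it suits these data. TMM factors were 0.816 to 0.955 in untreated and 1.08 to 1.18 in ET1 libraries. Fold changes are edgeR's. All 10 members were named, with partner arms and seed sharers that were tested or listed, and the 3 nearest miRNAs of each family's most abundant member. The members and lists were chosen with earlier results of these data known. Sequences and positions are RefSeq's for GRCm38.p6, matched by name for 1340 of 1573 rows, and hosts are from GENCODE M21. Further alternatives were other scalings and filters, a covariate, a replicate block and leaving out each library.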

Additional observations from a re-analysis of the deposited data

How the results depend on the processing

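None of the tested members was called in any of 14 alternatives to the fit, and the lowest edgeR adjusted p was 0.097, for miR-92a-3p with the replicate block. miR-17-5p, miR-19b-3p, miR-92a-3p and miR-363-3p kept their sign in every alternative in which they were tested. The sign turned for miR-25-3p with library sizes alone (0.034), for miR-106b-5p (−0.21) and miR-18a-5p (−0.34) with all rows fitted together, and with the miRNA share fitted as a covariate for miR-20a-5p (0.13), miR-93-5p (0.15), miR-25-3p (0.23) and miR-106b-5p (−0.32). That share did not overlap between groups, at 30.1% to 45.6% in untreated and 22.6% to 25.5% in ET1 libraries. The covariate fit therefore separates share and treatment poorly, and the SE for miR-20a-5p was 0.72 in place of 0.45. Leaving out 1 library turned miR-106b-5p without untreated library 1 (range −0.085 to 0.61) and miR-18a-5p without ET1 library 3 (range −0.055 to 0.37); miR-92a-3p ran from −0.97 to −0.54 and miR-19b-3p from 0.60 to 0.95. The cause of these turns was not tested. Per tag of the whole library, in place of known miRNA tags, the log2 differences of the seed families were −0.68 for miR-17, −0.11 for miR-18, 0.51 for miR-19 and −1.09 for miR-92, in place of −0.042, 0.52, 1.14 and −0.45, since known miRNAs were a smaller part of ET1 libraries. The miR-17 family difference ran from −0.21 to 0.20 with 1 library left out.

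Over all known miRNAs the 11 calls became 39 in DESeq2, 41 with library sizes alone and 37 with no filter. They became 0 with all rows fitted together, where 333 of 3193 small RNA rows of all kinds had an unadjusted p under 0.05. With the miRNA share as a covariate they also became 0, with 39 of 616 known miRNAs at an unadjusted p under 0.05. That covariate did not overlap between the groups, so its fit separates share and treatment poorly. The calls ran from 2 to 30 with 1 library left out. Replicate numbers are shared by the groups, but the labels give no pairing. Deviations of same-numbered libraries correlated at 0.28, 0.060 and 0.25, and every library correlated best with its own number. With the replicate block the count was 21, with 0 members. Counts of miR-363-3p, miR-106b-5p and miR-19a-3p stayed under 40 tags in every library, where counting error is wide. Counting error and the spread between the 3 libraries a group were not separated for any member.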
